A study of Mus musculus with 2 samples.

Results

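The cytosolic ribosomal protein genes were followed in regenerating mouse liver. They were taken by symbol, as every probe set whose single gene symbol begins with Rps or Rpl followed by a number, or is Rplp with a number or Rpsa, without the Rps6k kinases. The rule found 49 genes on 105 probe sets, of 18193 genes named on the array. The compared livers were whole liver of BALB/c nude mice at day 3 after a surgical 70% partial hepatectomy, which the submitters call active regeneration, and whole liver at day 0, which they call the control. Nude mice lack a functional thymus, and both livers share this strain. There was 1 array for day 3 and 1 for day 0, the labels do not say whether animals were pooled, and the day, the operation and the animal cannot be told apart. With a single array per day nothing here is replicated, so differences are described and not tested.

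Ribosomal proteins coat the ribosomal RNA of the small subunit (the RPS proteins), which reads the messenger RNA, and of the large subunit (the RPL proteins), which joins the amino acids. Cells keep the proteins in nearly equal numbers, and a dividing cell has to double its ribosomes. Their messenger RNAs begin with a terminal oligopyrimidine (TOP) tract, a C followed by an unbroken run of C and T (U in the RNA), through which growth signals acting on mTOR are known to control how strongly these messages are translated. In mice, loss of the ribosomal protein S6 gene in liver is known to block the division of hepatocytes after hepatectomy. The symbols also take in paralogs, which are copies with a changed sequence or another tissue range, such as Rpl22l1 and Rps27l.

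The sequence at the start of the gene was also looked at, which the symbol rule did not use. RefSeq promoters of build GRCm38.p6 were at hand for 43 of the 49 genes, each with 250 bases before and 50 bases after an annotated start. A C followed by at least 4 bases that are C or T stood exactly at an annotated start of 8 genes (18.6%), against 3.01% of the 27025 genes in the same table. Within 10 bases of the start it was found in 27 genes (62.8%), against 34.4% of all genes. The 8 genes are shown first, because they carry the tract where the messenger RNA is annotated to begin. Then come Rpl13a and Rpl22l1, whose tract lies just after the annotated start, and Rps3a1, which has none within 10 bases. These 3 are examples picked by no set rule and do not stand for the other genes with or without a tract. Each line holds 20 bases before the start and the first 20 of the transcript, 5′ to 3′ on the strand of the gene, with the pyrimidine run in capitals.
Rpl35 (chr2:39005112-39005151, minus strand): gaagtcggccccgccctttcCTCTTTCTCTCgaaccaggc
Rps10 (chr17:27635225-27635264, minus strand): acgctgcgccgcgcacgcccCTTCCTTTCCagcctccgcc
Rps18 (chr17:33955646-33955685, minus strand): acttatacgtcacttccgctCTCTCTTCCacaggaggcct
Rps6 (chr4:86857348-86857387, minus strand): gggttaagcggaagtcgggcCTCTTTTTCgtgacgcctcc
Rpl38 (chr11:114668560-114668599, plus strand): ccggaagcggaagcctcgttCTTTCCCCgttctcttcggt
Rps27 (chr3:90213629-90213668, minus strand): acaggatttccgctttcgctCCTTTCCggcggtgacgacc
Rpl14 (chr9:120571497-120571536, plus strand): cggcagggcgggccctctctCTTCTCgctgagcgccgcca
Rplp2 (chr7:141447631-141447670, plus strand): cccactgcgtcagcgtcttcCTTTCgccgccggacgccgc
Rpl13a (chr7:45128726-45128765, minus strand): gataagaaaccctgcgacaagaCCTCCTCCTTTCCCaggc
Rpl22l1 (chr3:28805488-28805527, plus strand): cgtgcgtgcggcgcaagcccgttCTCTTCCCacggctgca
Rps3a1 (chr3:86142649-86142688, minus strand): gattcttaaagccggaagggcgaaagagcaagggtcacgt

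The runs printed for these 8 genes are 5 to 11 bases long, the longest that of Rpl35. The heptamer CTTCCGG, which holds the core bound by ETS factors and was chosen after the sequences were seen, occurred on either strand in 21 of the 43 genes (48.8%), against 9.93% of all genes. The heptamer AAGATGG, a core sequence bound by YY1, occurred in 8 (18.6%), against 7.28%. These are matches of letters in windows around annotated starts and show neither a used start nor a bound factor.

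Values are MAS5 signals, the linear brightness that Affymetrix software gives for a probe set, and their order between genes also reflects the probes, so signals are compared only between the days. A common floor of 68.5, the higher of the 2 array medians, was applied before log2 was taken, and each gene was represented by its brightest probe set. Of the 49 genes 46 were above the floor, all of them on both arrays, beside 12624 genes of the whole array. Rps16, Rpl3l and Rpl39l were under the floor on both. For Rps16 only the probe set named for it alone was read, at a signal of 1.78 at day 3 and 1.43 at day 0. Rpl3l, a muscle paralog of Rpl3, was at 4.63 at day 3 and 3.28 at day 0. Rpl39l, a paralog known from testis, was at 4.90 at day 3 and 42.1 at day 0. A further 28 ribosomal protein genes, Rpl3, Rpl5, Rpl23 and Rps12 among them, occurred only on probe sets that list other genes too, mostly pseudogenes, and were not analysed singly.

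The arrays differed in ways that bear on such bright probe sets. The highest signal of any probe set was 57028 at day 3 and 74249 at day 0, although the trimmed means were equal at 500.0. Bacterial poly-A RNAs that are spiked in ahead of labelling showed a larger 3′ to 5′ signal ratio on the day 3 array, 1.32 to 2.90 times that of day 0 over 8 pairs of probe sets. The same ratio for the liver's own messages was 1.91 times that of day 0 for Gapdh and 2.09 times for beta-actin. All 8 hepatocyte markers were measured and had log2 ratios of −0.53 to −0.33, with a summed signal of 264415 at day 3 and 354704 at day 0. Their median log2 ratio was −0.40 on the deposited scale. After loess, which takes out the trend of the ratio with signal, it was −0.11, with 1 of 8 above 0. The size of the hepatocyte difference therefore depended on the scaling. Kupffer cell and macrophage markers summed to 19742 at day 3 and 7496 at day 0, with 4 of 7 at least 2-fold higher. For these and the following counts, 12.8% of all genes were at least 2-fold higher and 5.61% at least 2-fold lower. Stellate cell and fibroblast markers summed to 28779 at day 3 and 10331 at day 0. Of these 6 markers 4 were at least 2-fold higher, and all 6 had a log2 ratio above 0. Neutrophil markers summed to 1387 at day 3 and 398 at day 0 (2 of 7 at least 2-fold higher, 3 of 7 under the floor). The 2 were S100a8 and S100a9, while Elane was 1.26-fold higher and Ngp at least 1.31-fold lower, both near the floor. Cholangiocyte markers summed to 1042 at day 3 and 275 at day 0 (3 of 4 at least 2-fold higher, all 4 with a log2 ratio above 0). Endothelial markers summed to 4831 at day 3 and 6680 at day 0 (none of 5 past 2-fold, with Lyve1 at 1.91-fold and Pecam1 at 1.95-fold higher and the other 3 lower). Lymphocyte markers summed to 259 at day 3 and 375 at day 0 (3 of 6 under the floor). Of the rest Cd8a was 1.42-fold higher, and Cd79b and Ms4a1 were lower. Of 3 erythroid markers measured, Alas2 was 3.21-fold lower, Slc4a1 was 1.45-fold higher and 1 was under the floor, and they summed to 2939 at day 3 and 9019 at day 0. In whole tissue fewer cells of a type and less RNA per cell cannot be told apart, and the part of these differences in the ribosomal protein values was not tested.

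The ribosomal protein genes had nearly the same signal at both days. Their median log2 ratio of day 3 over day 0 was 0.02, with 24 genes above 0 and 22 below, beside a median of 0.08 over all 12624 genes. The summed signal of the 46 genes was 725342 at day 3 and 724689 at day 0. Of the 46 genes 2 (4.35%) were at least 2-fold higher at day 3, Rpl12 and Rps4l, where 12.8% of all genes were. None was 2-fold lower, where 5.61% of all genes were. At 1.5-fold the count was 3 higher, with 24% of all genes, and 0 lower, with 14.2% of all genes, so that 43 of 46 (93.5%) stayed within 1.5-fold against 61.8% of all genes. The interquartile range of the members spanned 0.36 log2 units, from −0.13 to 0.24, and that of all genes 0.88 units, from −0.32 to 0.56. These comparisons were not matched for signal, and the members stood at a median percentile of 99.3 at day 3 and 98.9 at day 0. A narrow range was not particular to them: the quartiles of the mitochondrial ribosomal protein genes were −0.28 and 0.14. The level of the median depended on how the arrays were scaled: it was 0.22 with quantile normalisation (42 of 46 genes above 0), 0.23 with loess (43 above 0) and 0.31 when the arrays were scaled to the hybridisation spikes, RNAs added after labelling (43 above 0). The median of all genes was 0.003 with quantile normalisation, 0.097 with loess and 0.36 with spike scaling.

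**Figure D1:**
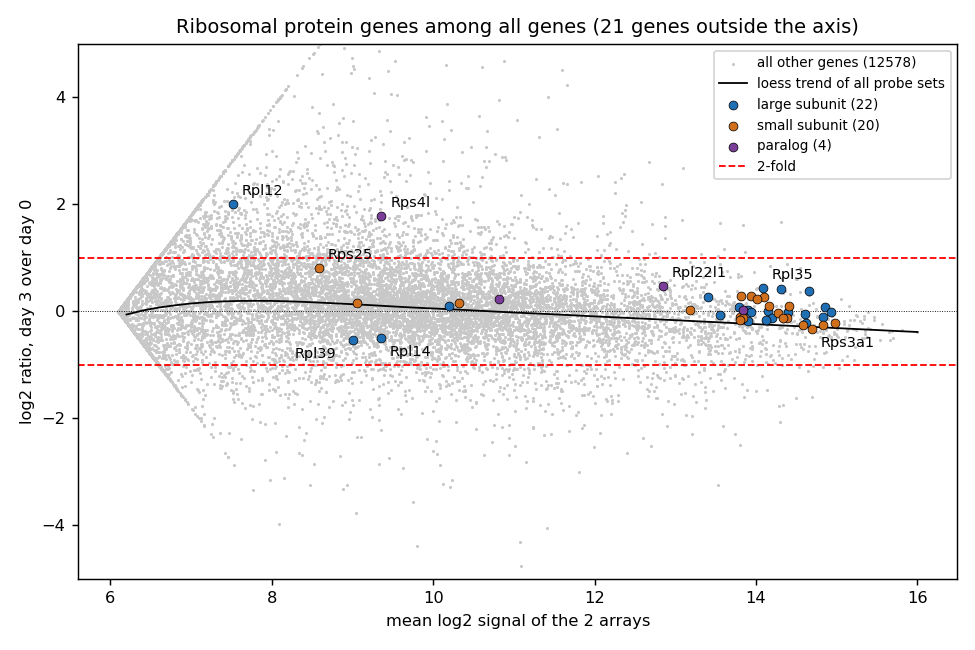
The log2 ratio of day 3 over day 0 of each gene (vertical axis) is plotted against its mean log2 signal on both arrays (horizontal axis), with 22 large subunit genes, 20 small subunit genes and 4 paralogs in colour, all other genes in grey, the loess trend as a black line and 2-fold as dashed lines. Most ribosomal protein genes sit at the right end of the array's range, on or above the falling trend, and Rpl12 and Rps4l lie above 2-fold at lower signals.

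Among the small subunit genes the brightest probe sets gave small differences in both directions. Without paralogs the 20 genes had a median log2 ratio of −0.01 and ranged from −0.33 to 0.82, 10 above 0 and 10 below. Rps25, a head protein needed for some cap-independent translation, was the highest, with a signal of 508 at day 3 and 289 at day 0 (1.76-fold, log2 ratio 0.82). Rps20 had 17353 at day 3 and 14141 at day 0 (1.23-fold), Rps24 15875 at day 3 and 13059 at day 0 (1.22-fold), and Rpsa, also known as the laminin receptor, 19317 at day 3 and 15930.4 at day 0 (1.21-fold). Rps3, which lies at the entry of the messenger RNA channel, had 17957 at day 3 and 15246 at day 0 (1.18-fold). These are modest excesses at day 3, and a second probe set above the floor was present for Rps20, Rps24 and Rps3, each with at least 1 further probe set above 0.

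At the low end of the small subunit stood Rps3a1, with a signal of 23582 at day 3 and 29626 at day 0 (1.26-fold lower, log2 ratio −0.33). Rps2, at the entry of the messenger RNA channel, had 26750.4 at day 3 and 31919 at day 0 (1.19-fold lower). Rps28 had 22409 at day 3 and 26676 at day 0 (1.19-fold lower), and its other probe sets gave −0.11 and −0.21. Rps29 had 30070.1 at day 3 and 34875 at day 0 (1.16-fold lower), and its 3 probe sets lay between −0.27 and −0.21. Thus 3 probe sets of Rps28 and 3 of Rps29, read on the same 2 arrays, were all lower at day 3 on the deposited scale. After loess the log2 ratio was −0.04 for Rps3a1, 0.05 for Rps2, 0.03 for Rps28 and 0.10 for Rps29.

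Rps6, the substrate of the S6 kinases, had 1342 at day 3 and 1206 at day 0 on its probe set above the floor (1.11-fold). Rps19, the gene most often mutated in human Diamond-Blackfan anemia, had 9327 at day 3 and 9187 at day 0 (1.02-fold). Rps14 had 22469 at day 3 and 20889 at day 0 (1.08-fold), and Rps10 18903 at day 3 and 17625 at day 0 (1.07-fold). Rps7, which can bind the p53 regulator MDM2, had 20535 at day 3 and 22257 at day 0 (1.08-fold lower). None of these 5 differed by more than Rps6 did.

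**Figure D2:**
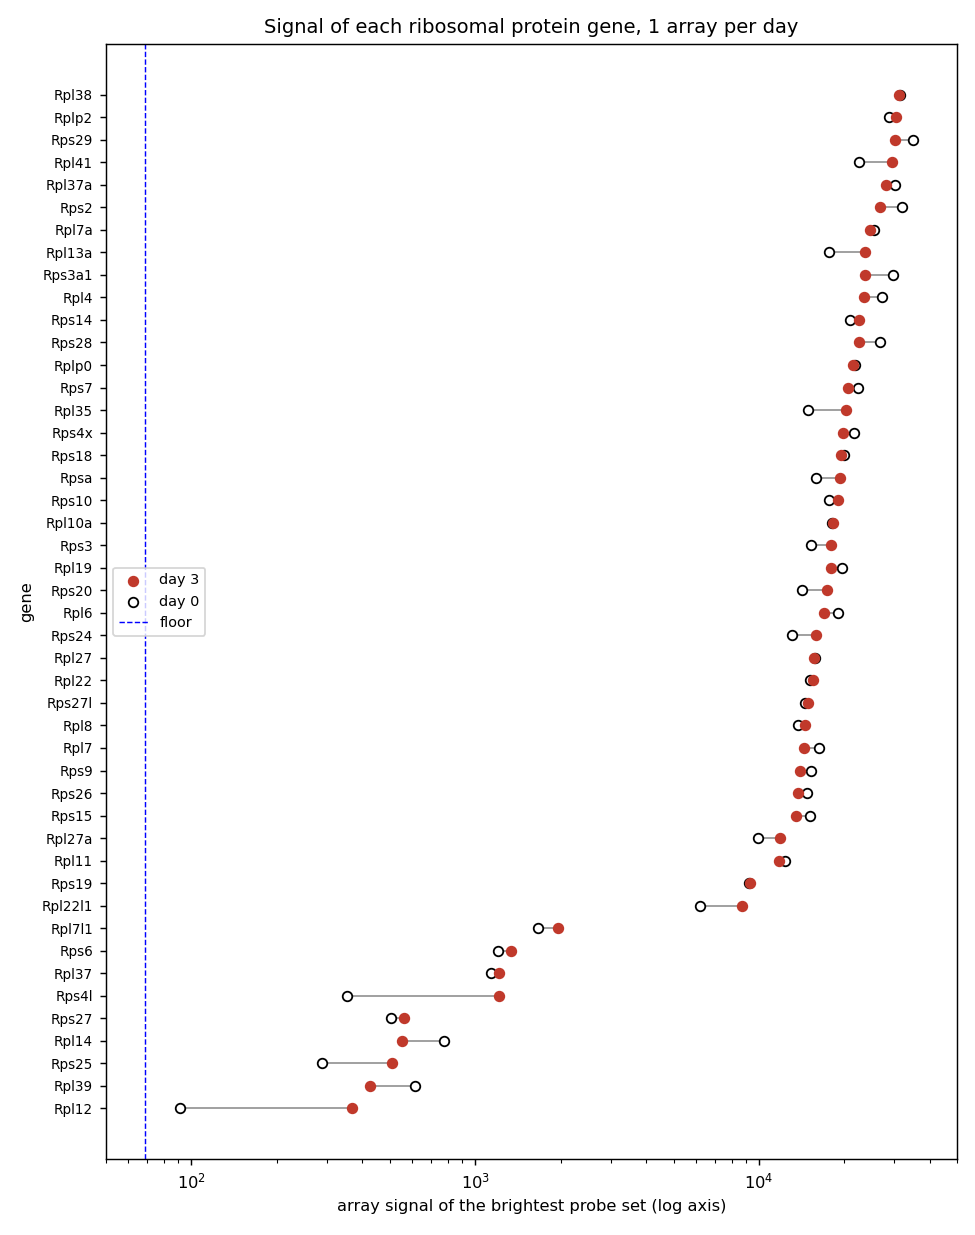
The array signal of the brightest probe set of each gene (horizontal axis, log scale) is shown for day 3 (filled) and day 0 (open), 1 array each, with genes ordered by day 3 signal and the floor of 68.5 as a dashed line. Of the 46 genes 34 have signals of at least 10000 on both arrays, where the points nearly coincide, and the widest gaps are those of Rpl12 and Rps4l at the lower end.

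Of the large subunit genes 10 were above 0 and 12 below, with a median of −0.01 over 22 genes without paralogs. Rpl12, a protein of the stalk base, had the widest difference of all members, with a signal of 369 at day 3 and 91.3 at day 0 (4.04-fold, log2 ratio 2.01). That value rests on 1 probe set named for Rpl12 alone, whose day 0 signal was close to the floor of 68.5. Rpl35, which sits at the exit of the peptide tunnel, had 20187 at day 3 and 14863 at day 0 (1.36-fold), and its 5 probe sets above the floor lay between 0.32 and 0.57. Rpl13a, which in human cells also silences inflammatory messages, had 23610.0 at day 3 and 17596 at day 0 (1.34-fold), with 4 probe sets between 0.27 and 0.96. Rpl41, a very short peptide, had 29406 at day 3 and 22542 at day 0 (1.30-fold), with 4 probe sets between 0.35 and 1.03. These 3 genes were thus higher at day 3 on every probe set that passed the floor on both arrays. Their probe sets were read on the same 2 arrays, and each gene has some with the suffix _x_at, which may match other genes. Rpl27a had 11877 at day 3 and 9904 at day 0, a log2 ratio of 0.26.

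The lowest ratios of all members were those of Rpl39 and Rpl14. Rpl39, which lines the peptide tunnel, had 427 at day 3 and 615 at day 0 (1.44-fold lower, log2 ratio −0.53). Rpl14 had 552 at day 3 and 775 at day 0 (1.40-fold lower, log2 ratio −0.49). Each rests on 1 dim probe set. Among bright large subunit genes Rpl4, another tunnel protein, was lowest, with 23342 at day 3 and 27040 at day 0 (1.16-fold lower). Rpl7 had 14376 at day 3 and 16291 at day 0 (1.13-fold lower), and all 3 of its probe sets were below 0, from −0.34 to −0.18. Rpl6 had 16890 at day 3 and 18959 at day 0 (1.12-fold lower). Rpl38, known in mice for its part in translating Hox messages, had 31080 at day 3 and 31349 at day 0 (1.01-fold lower), and Rpl37a had 27907 at day 3 and 30130.3 at day 0 (1.08-fold lower).

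The acidic stalk binds the elongation factors, and 2 of its genes were analysed. Rplp2 had a signal of 30463 at day 3 and 28748 at day 0 (1.06-fold), and Rplp0, the base of the stalk and a common normalisation gene in quantitative PCR, had 21421 at day 3 and 21716 at day 0 (1.01-fold lower). Rpl11, which binds MDM2 when ribosome assembly is disturbed, had 11778 at day 3 and 12359 at day 0 (1.05-fold lower). The log2 ratios of these 3 genes lay within the interquartile range of all genes. The medians of the subunits, paralogs included, were −0.001 for 24 large and 0.03 for 22 small subunit genes, and their difference of −0.03 was above 0 after quantile normalisation (0.05) and loess (0.07).

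Of the 4 paralogs above the floor all had a log2 ratio above 0 on the brightest probe set, from 0.04 to 1.78. Rps4l had a signal of 1212 at day 3 and 354 at day 0 (3.43-fold, log2 ratio 1.78) on 1 _at probe set. RefSeq lists it as a transcribed pseudogene on chromosome 6 and the other 48 genes as protein-coding. Rps4x, the X-linked gene of which it is a copy, had 19718 at day 3 and 21563 at day 0 (1.09-fold lower). Rpl22l1, the paralog that mouse Rpl22 is known to hold down, had 8684 at day 3 and 6215 at day 0 (1.40-fold), the highest ratio among the 40 genes with a geometric mean signal of at least 1000. Rpl22 itself had 15484 at day 3 and 15165 at day 0 (1.02-fold) on its brightest probe set, while its other probe sets gave 0.61 and −0.40. For Rpl22 the direction therefore depends on the probe set. Rps27l, a p53 target, had 14817 at day 3 and 14462 at day 0 (1.02-fold), with 3 probe sets between −0.05 and 0.04. None of these is a plain _at one, and those with the suffix _x_at may match other genes. Whether they also read Rps27 was not tested. Rps27 itself had 561 at day 3 and 504 at day 0 (1.11-fold). Rpl7l1, a copy of Rpl7, had 1954 at day 3 and 1664 at day 0 (1.17-fold), and its 3 probe sets were all above 0, from 0.23 to 0.41.

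The widest ratios came from dim probe sets. Only 6 of the 46 genes were represented by a probe set with a geometric mean signal under 1000, and these were Rpl12, Rps4l, Rps25, Rps27, Rpl14 and Rpl39, which hold the 3 highest and the 2 lowest ratios. The other 40 genes lay between 1.26-fold lower (Rps3a1) and 1.40-fold higher (Rpl22l1), with an SD between genes of 0.21 log2 units. For comparison, the SD per probe set between the brightest pair of probe sets of 1 gene was 0.14 for the members (20 genes) and 0.44 for all genes (4376 genes). Neither value holds any variation between animals.

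Ratios also varied with signal. Of the probe sets above the floor on both arrays, the 15 with a geometric mean signal under 1000 had a median log2 ratio of 0.35, with 11 above 0. The 22 with a geometric mean signal between 1000 and 10000 had a median log2 ratio of 0.35, with 20 above 0. The 35 between 10000 and 20000 had a median of 0.04, with 21 above 0. The 18 of at least 20000 had a median of −0.12, with 4 above 0. Across the 75 probe sets of signal 1000 or more, which share arrays and often a gene, Spearman's rho between ratio and signal was −0.53, and −0.34 after loess, given as a description. After loess the medians of these 4 classes, from dim to bright, were 0.23, 0.48, 0.27 and 0.14. The loess trend over all probe sets also declined with signal, from 0.20 at a mean log2 signal of 7.8 to −0.25 at 14.2. Ribosomal protein genes were named on 14.8% of the 796 probe sets of at least 10000, so they take part in setting that trend.

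By gene, 22 members were above 0 on the deposited scale and under all 4 rescalings (median centring, quantile, loess and spikes), and 3 were below 0 under all of them, namely Rps3a1, Rpl14 and Rpl39. The other 21 changed sign. The 22 include Rpl12, Rps4l, Rps25, Rpl22l1, Rpl35, Rpl13a and Rpl41. Those that changed sign include Rps2, Rps28, Rps29 and Rpl4, each lower on the deposited scale. Median centring and spike scaling each moved all members by the same amount, and with spike scaling the median of all genes was 0.36. The share of all genes that kept their sign was not counted. These counts therefore describe the scalings as much as the genes and show no trait of the members.

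Many probe sets of these genes can pick up related sequences. Of the 105 probe sets 43 carried a suffix of the array maker for probes that may match other genes (40 _x_at and 3 _s_at). Another 28 had the suffix _a_at, for several transcripts of 1 gene, and 34 had _at alone. The brightest probe set was an _x_at or _s_at one for 15 of the 46 genes, an _a_at one for 18 and an _at one for 13. Of the probe sets above the floor on both arrays, 22 with _at alone had a median log2 ratio of 0.25 and a median geometric mean signal of 654, and 38 of the _x_at class had a median of 0.20 at a signal of 13824. The 27 of the _a_at class had a median of 0.02 at 14772. For 20 genes at least 2 probe sets were above the floor on both arrays: all were above 0 for 7, all below 0 for 3, and of mixed sign for 10. The median span within a gene was 0.26 log2 units.

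**Figure D3:**
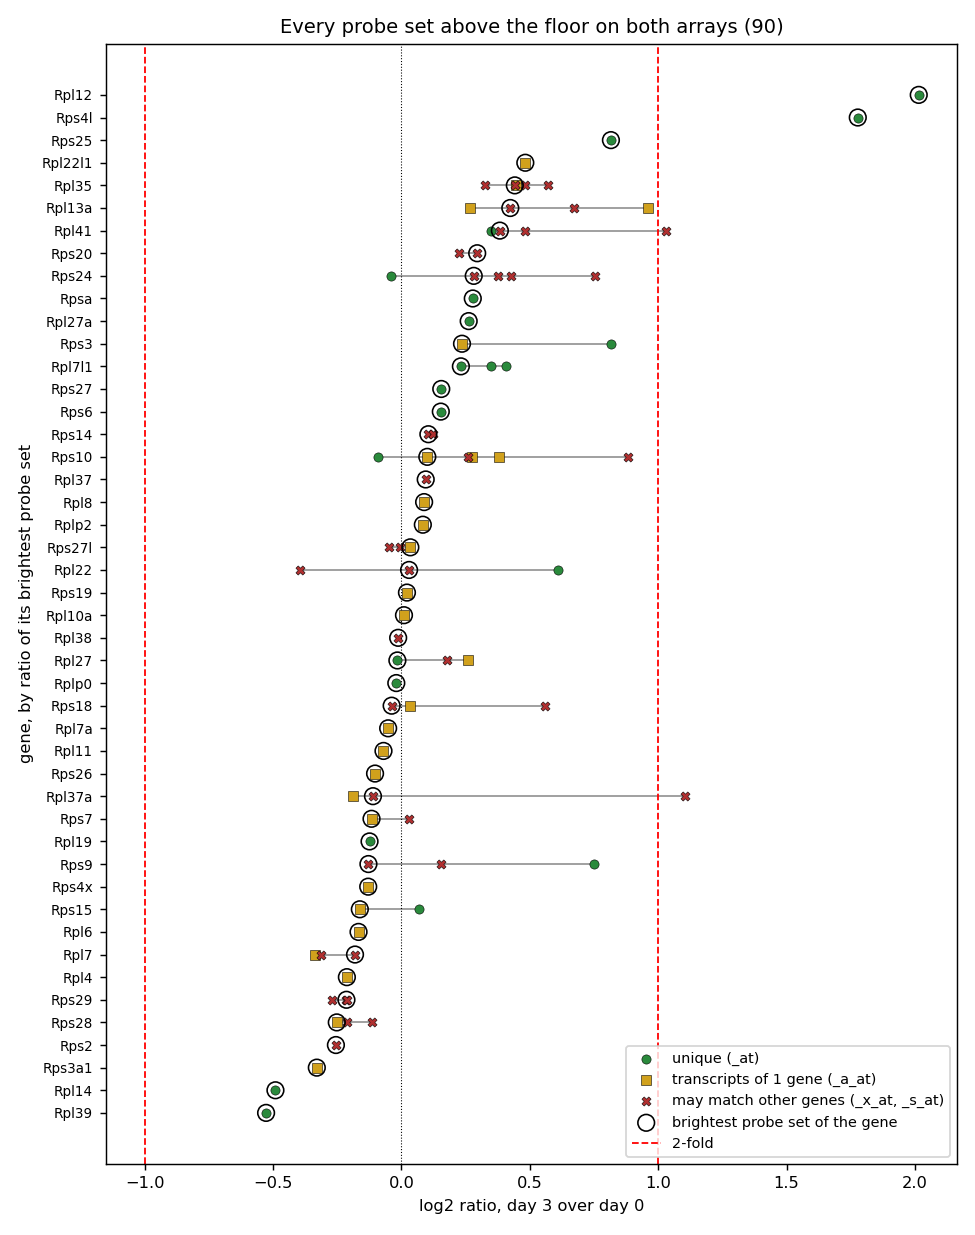
Each of the 90 probe sets above the floor on both arrays is shown by its log2 ratio of day 3 over day 0 (horizontal axis) in the row of its gene, with symbols for the suffix of the probe set, a ring on the brightest one, a grey line over the span of a gene and 2-fold as dashed lines. Most rings lie near 0, while the outlying points in the rows of Rpl37a, Rps10, Rps9 and Rps3 are probe sets other than the brightest.

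Probe sets disagreed by at least 1 log2 unit for Rpl37a and Rpl22. Rpl37a had 754 at day 3 and 351 at day 0 on 1 _x_at probe set (log2 ratio 1.11), against −0.11 and −0.19 on 2 bright ones. Rpl41 had 228 at day 3 and 112 at day 0 on a dim _x_at probe set (1.03), against 0.38 on its brightest. Rps9 had 291 at day 3 and 173 at day 0 on a dim _at probe set (0.75), against −0.13 on its brightest. Rps3 likewise had 332 at day 3 and 188 at day 0 on a dim _at probe set (0.82), against 0.24 on its brightest. Some other probe sets went the other way: 1 of Rpl22 had −0.40 against 0.03 on its brightest, 1 of Rps10 had −0.09 against 0.10, and 1 of Rps24 had −0.04 against 0.28. All remaining probe sets of Rps10 and Rps24 above the floor were higher at day 3, from 0.26 to 0.88 for Rps10 and from 0.38 to 0.75 for Rps24. Apart from Rpl37a, Rpl41 and Rpl22, these examples were chosen after their values were seen.

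The probe sets left out by the rule because they list several genes gave a similar picture. There were 110 that list a ribosomal protein gene with others, and 102 were above the floor. Their log2 ratios had a median of 0.02 and ranged from −0.79 to 1.90, with 54 above 0. Of the 102 probe sets 1 was at least 2-fold higher, where 12.8% of all genes were. None was 2-fold lower, where 5.61% of all genes were.

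Related gene groups on the same arrays are set beside the members without a test of the difference. Of 25 genes listed for other messages with a 5′ TOP tract, 20 had a probe set and all 20 were above the floor, with a median log2 ratio of −0.07, 7 above 0 and 1 past 2-fold (5.0%, where 12.8% of all genes were at least 2-fold higher). Eef1a1, which brings the transfer RNA to the ribosome, had 37130.3 at day 3 and 47325 at day 0 (1.27-fold lower). Eef2, the translocation factor, had 14709 at day 3 and 20181 at day 0 (1.37-fold lower). In the same list Eef1b2 was 1.41-fold and Eef1d 1.20-fold higher, and these elongation factor genes are examples picked by no set rule. Fau, which encodes the small subunit protein S30 fused to a ubiquitin-like protein, had 15398 at day 3 and 18827 at day 0 (1.22-fold lower). After loess the log2 ratio was −0.01 for Eef1a1, −0.21 for Eef2, 0.66 for Eef1b2, 0.42 for Eef1d and −0.05 for Fau. Vim, the intermediate filament gene of stromal cells, was the gene past 2-fold, with 2977 at day 3 and 566 at day 0 (5.26-fold). The 76 mitochondrial ribosomal protein genes had a median of −0.03, with 34 above 0 and 2 past 2-fold (2.63%), both higher. The 34 genes of ribosome assembly and RNA polymerase I had a median of 0.25, with 30 above 0 and 5 past 2-fold, all of them higher (14.7%, near the 12.8% of all genes). After loess the medians were 0.23 for the ribosomal protein genes, 0.04 for the other TOP messages, −0.02 for the mitochondrial ribosomal proteins and 0.26 for the assembly genes.

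**Figure D4:**
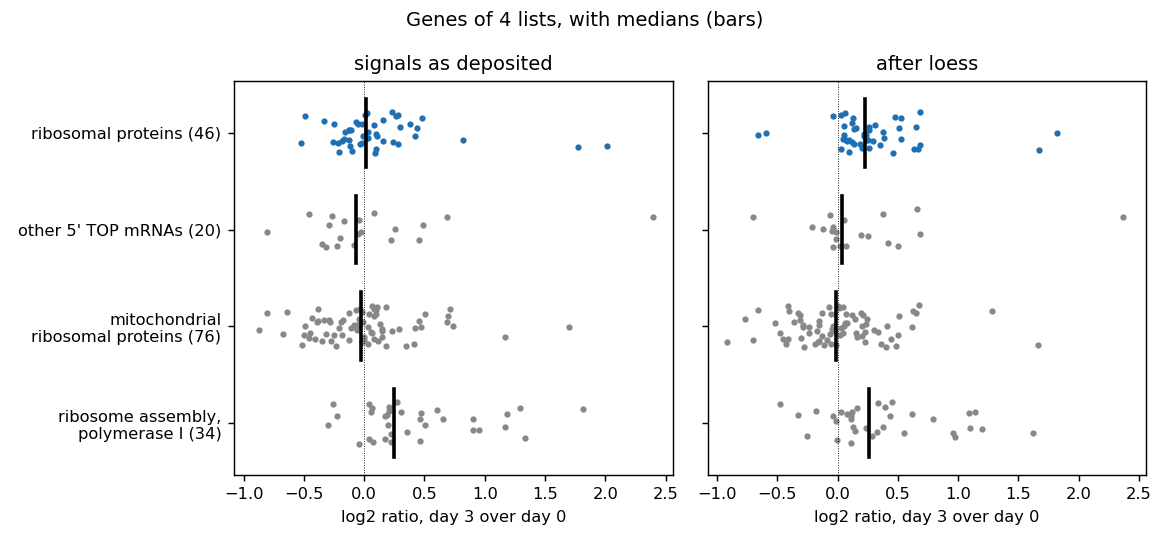
Each point is a gene of 1 of 4 lists, placed by its log2 ratio of day 3 over day 0 (horizontal axis) on the deposited scale (left) and after loess (right), and the bars are medians. On the deposited scale the median of the 46 ribosomal protein genes is 0.02 and that of the 34 assembly genes 0.25, and after loess they are 0.23 and 0.26.

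The position of the pyrimidine tract was set beside the ratios as a description. The 8 genes with the tract at the annotated start had a median log2 ratio of 0.09, from −0.49 (Rpl14) to 0.44 (Rpl35). The 32 other analysed genes with a promoter in the table had a median of −0.02, from −0.53 (Rpl39) to 2.01 (Rpl12). The ranges of these groups overlap.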

How the data were processed

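Total RNA of whole liver was extracted with Trizol and 5 µg was labelled as biotinylated cRNA, per the labels' protocols. The authors deposited intensity values (MAS5 signals, GCOS and MAS5 per the submitters' processing notes) on a linear scale, 1 array per day. For software versions and the target of the scaling the sources used here give nothing. Probe sets were named from the supplied array annotation: 34945 had 1 symbol, 932 several, 9160 no entry, and 64 were controls. Entrez IDs of all 49 members matched RefSeq (GRCm38.p6) under the same symbol. Coordinates are given only for RefSeq promoters, since the deposited table names no build.

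Signals under the floor of 68.5 (the higher array median) were set to it and log2 was taken. Probe sets under it on both arrays were dropped, and the brightest probe set by mean log2 signal stood for a gene. The genes named in the text are the 6 highest and 6 lowest ratios, the 5 highest signals (a choice of examples, not an order of abundance), genes with discordant or 2-fold probe sets, stalk, S6, MDM2-binding and paralog genes. Other members were added as examples after their values were seen. The members and lists were chosen with earlier results of these data known. With 1 array per day no test was run, and the number of arrays limits the precision. The steps were tested on simulated data. Alternatives changed scaling, floor, threshold and choice of probe set. Python 3.11.15, pandas 2.3.3 and statsmodels 0.14.6 (loess fraction 0.3) were used.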

Additional observations from a re-analysis of the deposited data

How the results depend on the processing

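The ribosomal protein median of 0.02 was 0.22 after quantile normalisation, 0.23 after loess, 0.31 with hybridisation spike scaling and 0.16 without _x_at, _s_at and _a_at probe sets, where 21 genes were left. Relative to the median of all genes it was −0.067, and of opposite sign after quantile normalisation (0.21), loess (0.13), the mean over probe sets (0.018), _at probe sets alone (0.082) and with probe sets of signal at least 1000 only (0.055), an alternative added after seeing the data. The number of genes above the median of all genes was 20, against 42 (quantile), 35 (loess), 25 (mean over probe sets), 25 of 40 (signal at least 1000) and 13 of 21 (_at probe sets alone). The cause of these shifts was not tested. The 2 genes at least 2-fold higher became 1 with the floor at the 75th percentile, which drops Rpl12, and 0 with probe sets of signal at least 1000. They became 3 with spike scaling (Rps25 added, 2.15-fold) or with the dimmest probe set (Rpl37a added, 2.15-fold). The count of 2-fold lower genes was 0, against 1 when the floor was the 25th percentile, where Rpl39l enters at a bound of at least 2.12-fold lower. The difference between the subunits (large minus small, −0.03) was above 0 after quantile normalisation (0.05), loess (0.07) and with signal at least 1000 (0.048), and moved by at most 0.1 log2 units. No paired analysis was possible because each day has 1 array. With 1 array per day, differences of the size seen here between most members cannot be told from variation between animals or arrays.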
